A study of Mus musculus with 12 samples.

Results

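Lpar1, Sorl1 and Ptprt are 3 genes of 48709 counted in this series, and 3 of the 16511 that passed the filter on low counts. They were selected on their read counts, chosen by how unequally a conditional knockout (cKO) labelled BAF155 and one labelled Pax6 changed them. The direct difference between the knockouts, and the 2 differences from control that form it, are therefore given as descriptions with no test. The libraries came from the cortex of C57BL/6J mouse embryos at E15.5, during cortical neurogenesis, 4 from BAF155 cKO, 4 labelled Pax6 cKO and 4 from control. The study compared each knockout with the control. The sources used here do not give the alleles, the Cre line that made each deletion or the genotype of the controls, nor do they say whether each library was made from a different embryo. The spread between libraries may therefore be technical.

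Each of the 3 genes encodes a receptor at the cell surface or in its sorting compartments. Lpar1 encodes a G protein-coupled receptor for lysophosphatidic acid (LPA), a signalling lipid that the enzyme autotaxin releases outside the cell. The receptor was first found in the ventricular zone of the embryonic cortex, where radial glia, its stem cells, divide. Sorl1 encodes SORLA, a sorting receptor with a VPS10 domain and lipoprotein receptor repeats that carries the amyloid precursor protein APP between the Golgi and endosomes. Ptprt encodes a receptor-type tyrosine phosphatase of the R2B family, whose extracellular part binds the same protein on a neighbouring cell. BAF155, the protein of Smarcc1, belongs to the core of BAF, a complex that remodels chromatin, and Pax6 is a transcription factor of radial glia.

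The targeted genes did not both match the labels. Smarcc1 lay at 303 ± 68.7 CPM (counts per M reads of scaled library size, mean ± SD, n = 4 libraries here and below) among controls, 127 ± 10.8 CPM in BAF155 cKO libraries and 186 ± 6.71 CPM in those labelled Pax6 cKO. Pax6 lay at 110 ± 19.1 CPM in controls, 314 ± 40.3 CPM in BAF155 cKO libraries and 389 ± 8.74 CPM in libraries labelled Pax6 cKO, so the gene named in that label was higher there than in control (log2 fold change 1.82, SE 0.12, adjusted p = 9.46e-08, edgeR). Smarcc1 fell in the BAF155 cKO by 1.25 on the log2 scale (SE 0.13, adjusted p = 1.64e-05, edgeR). In the libraries labelled Pax6 cKO its log2 fold change was -0.71 (SE 0.13, adjusted p = 0.00128, edgeR). That of Pax6 in the BAF155 cKO was 1.51 (SE 0.12, adjusted p = 9.98e-07, edgeR). Each targeted gene thus moved the same way in both groups. Counts covered whole genes, and which part of either gene was deleted is not given. These 4 libraries are therefore called Pax6-labelled throughout, and every direction drawn from these libraries rests on that label. Each library held between 15.2 and 32.05 M counted reads. By Xist, all BAF155 cKO libraries were female, all Pax6-labelled libraries male, and the controls 2 of each. The names of the count files place all controls in sequencing lane 8. Lane 1 held the Pax6-labelled libraries with replicates 1 and 2 of the BAF155 cKO, whose replicates 3 and 4 were run in lane 3. Lane and group cannot be told apart for the controls, and neither can sex and group between the knockouts.

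All 3 genes lie on the minus strand, in mm10 coordinates with GENCODE M21 gene models. Lpar1 (ENSMUSG00000038668) spans chromosome 4, 58435255 to 58553898, Sorl1 (ENSMUSG00000049313) chromosome 9, 41964720 to 42124297, and Ptprt (ENSMUSG00000053141) chromosome 2, 161521990 to 162661147. Ptprt is a very long gene of 1139 kb, against 160 kb for Sorl1 and 119 kb for Lpar1, and its exons add up to 12611 bases, those of Sorl1 to 11321 and those of Lpar1 to 4289. No exon of another gene overlaps those of Lpar1 or Ptprt. In Sorl1, 1.63% of the exon bases overlap Gm16214 on the other strand, whose reads cannot be told apart from it because the library kit does not mark strand.

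The bases just upstream of the start sites of Sorl1 and Ptprt are shown because both genes were lower in the Pax6-labelled libraries than in the BAF155 cKO. They come from RefSeq (GRCm38.p6, the assembly behind mm10), at chr9:42124298-42124547 and chr2:162661148-162661397, minus strand, 5′ to 3′. Capitals mark the letters GGGCGG, the GC box that Sp factors can bind, which was searched on both strands with overlaps allowed.
Sorl1: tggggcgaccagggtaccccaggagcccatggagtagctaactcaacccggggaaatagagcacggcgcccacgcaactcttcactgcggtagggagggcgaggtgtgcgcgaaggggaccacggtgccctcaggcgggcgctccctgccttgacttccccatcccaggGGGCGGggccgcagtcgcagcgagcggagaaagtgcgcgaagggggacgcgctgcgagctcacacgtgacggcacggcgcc
Ptprt: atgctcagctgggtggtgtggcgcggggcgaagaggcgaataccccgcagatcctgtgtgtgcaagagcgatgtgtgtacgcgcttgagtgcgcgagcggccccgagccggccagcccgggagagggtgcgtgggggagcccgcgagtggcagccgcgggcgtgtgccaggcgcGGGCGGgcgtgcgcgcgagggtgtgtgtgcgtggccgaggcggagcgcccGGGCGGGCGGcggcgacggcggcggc
Within the whole RefSeq window of 300 bases around the start site shown, which reaches 50 bases into the gene, Ptprt held 46 CpG dinucleotides and Sorl1 37, against a median of 7 over all 32851 windows. These are percentiles 98.4 and 94.4. Ptprt held 5 GC boxes, some overlapping, and Sorl1 1, and 35.7% of all windows held at least 1. CCAAT on either strand was in neither window (37.4% of all windows), and TATAAA in neither (13.6%). Sorl1 has a second RefSeq start window, at 42077213, with 9 CpG (percentile 54.2) and no GC box. Lpar1 has 3 such windows, with 14 CpG and 1 GC box at the outermost, 37 CpG and 1 GC box at 58553293, and 3 CpG and no GC box at the innermost, 58499403. These letters describe the windows and no binding was measured.

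**Figure D1:**
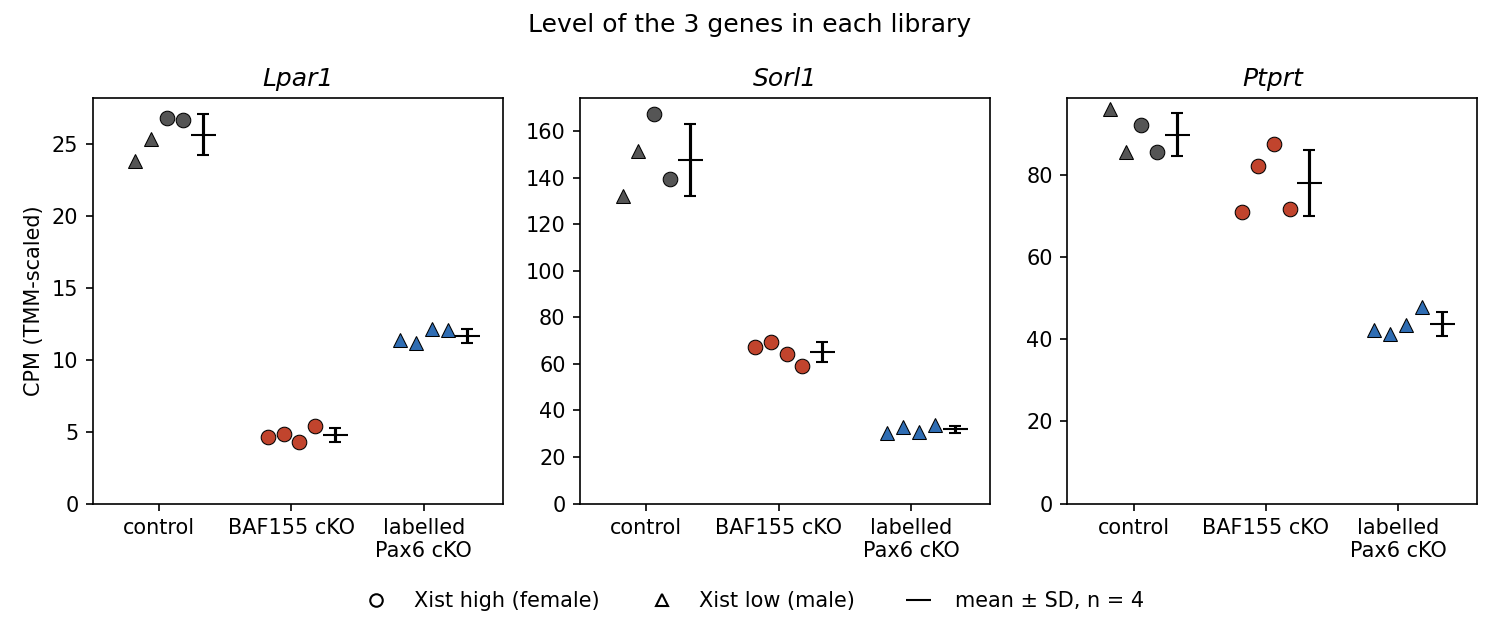
CPM of Lpar1, Sorl1 and Ptprt in each library by group, with mean ± SD (n = 4) to the right of the points; circles are Xist-high (female) and triangles Xist-low (male) libraries. The BAF155 cKO libraries are lowest for Lpar1, the Pax6-labelled libraries are lowest for Sorl1 and Ptprt, and BAF155 cKO and control overlap for Ptprt.

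Lpar1 was highest in control, lower in the Pax6-labelled libraries and lowest in the BAF155 cKO. Its level in control replicates 1 to 4 was 23.8, 25.3, 26.8 and 26.7 CPM. It was 11.3, 11.1, 12.1 and 12.1 CPM in the Pax6-labelled libraries, and 4.66, 4.82, 4.25 and 5.36 CPM in the BAF155 cKO. No library of one group reached into the range of another. The mean stood at 18.6% of control in the BAF155 cKO and at 45.5% in the Pax6-labelled libraries, and was 2.44-fold higher in the latter. Against control, the log2 fold change was -2.43 (SE 0.10) in the BAF155 cKO and -1.14 (SE 0.09) in the Pax6-labelled libraries, and between them -1.29 (SE 0.10, BAF155 cKO minus Pax6-labelled). Of the 16511 genes, Lpar1 ranked 24 from the lowest in the first of these contrasts, 209 in the second and 75 in the third. The BAF155 cKO values rest on 67 to 135 reads per library, fewer than the 274 to 398 reads in the Pax6-labelled libraries and the 535 to 720 reads in control. In whole tissue, fewer cells that express a gene and less RNA per cell cannot be told apart, here and in all results that follow.

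Sorl1 had the opposite order of the knockouts. Control replicates 1 to 4 held 132, 152, 167 and 139.5 CPM, and BAF155 cKO replicates 67.4, 69.4, 64.4 and 59.3 CPM. The Pax6-labelled libraries held 30.2, 32.7, 30.8 and 33.6 CPM. Again the 3 groups did not overlap, with control highest. The BAF155 cKO mean was 44.1% of control and that of the Pax6-labelled libraries 21.5%, a ratio of 2.05 between the knockouts. The log2 fold change was -1.18 (SE 0.09) in the BAF155 cKO and -2.21 (SE 0.09) in the Pax6-labelled libraries, ranks 185 and 32 from the lowest. The direct difference was 1.03 (SE 0.09), rank 98 from the highest. The controls spread by 15.4 CPM (SD) around 148 CPM, the BAF155 cKO libraries by 4.41 around 65.1 CPM and the Pax6-labelled libraries by 1.60 around 31.8 CPM. The values rest on 770 to 4001 reads per library.

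Ptprt was near control in the BAF155 cKO and lower in the Pax6-labelled libraries. Its control values were 95.98, 85.5, 92.2 and 85.7 CPM and its BAF155 cKO values 71.02, 82.1, 87.5 and 71.8 CPM. BAF155 cKO replicate 3 lay above 2 of the controls, so these groups overlap, although the mean was 86.9% of control. The Pax6-labelled libraries held 42.3, 41.4, 43.5 and 47.9 CPM, below every library of the other groups, at 48.7% of control. The log2 fold change was -0.20 (SE 0.09) in the BAF155 cKO and -1.04 (SE 0.09) in the Pax6-labelled libraries, ranks 3862 and 261 from the lowest, with a direct difference of 0.84 (SE 0.09), rank 183 from the highest. The values rest on 1018 to 2904 reads per library.

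Separation of groups was common in these data. For 2 of the 3 genes the BAF155 cKO libraries all lay below control, as they did for 7.95% of all genes tested (6.47% lay above and 14.4% in either direction). All 3 genes lay below control in the Pax6-labelled libraries, as did 18.3% of genes (17.2% lay above and 35.6% in either direction). The knockouts did not overlap for any of the 3, nor for 15.3% of all genes, 7.5% higher and 7.83% lower in the BAF155 cKO. Since the choice of the genes used these contrasts, nothing is read from the counts. Both comparisons with control share the same 4 control libraries. The median log2 fold change over all genes tested was 0.01 in the BAF155 cKO, 0.02 in the Pax6-labelled libraries and 0.01 between them.

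Per kb of exon, Sorl1 was the most abundant of the 3 in control, at 13.05 CPM per kb, followed by Ptprt at 7.12 and Lpar1 at 5.98 CPM per kb, and their ranges over the controls did not overlap. These levels are at percentiles 72.6, 57.8 and 53.7 of the genes tested. In the BAF155 cKO, Ptprt at 6.19 and Sorl1 at 5.75 CPM per kb overlapped, and Lpar1 was far below at 1.11 CPM per kb. In the Pax6-labelled libraries, Ptprt led at 3.47 CPM per kb, while Sorl1 at 2.81 and Lpar1 at 2.72 CPM per kb overlapped. The order Sorl1 over Ptprt over Lpar1 of the controls was thus kept in neither knockout.

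The differences between sexes within control, and between lanes 1 and 3 within the BAF155 cKO, were smaller than those between the knockouts. Each of these rests on few libraries, and lane 8, which held only controls, could not be compared in this way. Female controls exceeded male controls by 0.12 on the log2 scale for Lpar1 and by 0.11 for Sorl1, with -0.03 for Ptprt. BAF155 cKO libraries of lane 1 differed from those of lane 3 by -0.02, 0.15 and -0.06 for Lpar1, Sorl1 and Ptprt. Against only the controls of the same sex, the log2 fold change of Lpar1 was -2.50 in the BAF155 cKO and -1.08 in the Pax6-labelled libraries. That of Sorl1 was -1.25 and -2.16, and that of Ptprt -0.20 and -1.05. With the BAF155 cKO libraries of lane 1 alone, which share their lane with the Pax6-labelled libraries, the direct difference was -1.29 for Lpar1, 1.12 for Sorl1 and 0.82 for Ptprt.

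**Figure D2:**
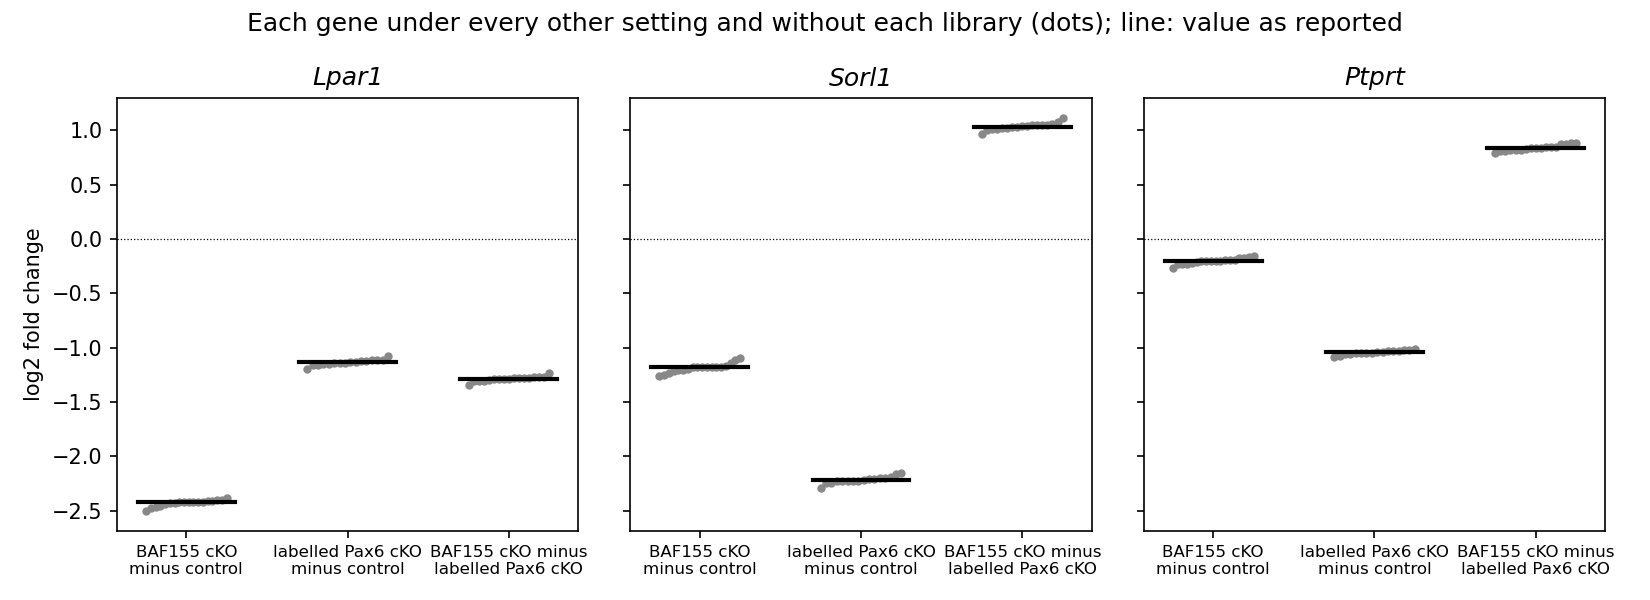
Log2 fold change of each gene in the 3 contrasts; the line is the reported value and each dot the value under another setting or without 1 library, sorted by size from left to right. Every dot keeps the sign of its line, and the widest range, for Sorl1 in the BAF155 cKO against control, runs from -1.26 to -1.10.

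The other LPA receptors differed less from control than Lpar1 did in each knockout. Of the 5 other receptor genes, Lpar3 was below the filter on low counts and 4 were tested. Tests here and below are edgeR's quasi-likelihood tests over all 16511 genes, with Benjamini-Hochberg adjusted p, and a gene is called at an adjusted p under 0.05. In the BAF155 cKO against control, 7.56% of all genes were called lower and 6.04% higher (13.6% together), and none of the 4 receptors was called (1 had an unadjusted p under 0.05, and DESeq2 called 1 higher, as edgeR did without BAF155 cKO replicate 3). Lpar4 lay at 10.2 ± 1.05 CPM in control and 12.5 ± 1.30 CPM in the BAF155 cKO (log2 fold change 0.31, adjusted p = 0.0706). Lpar6 lay at 8.71 ± 0.9996 and 9.34 ± 1.09 CPM (0.10, adjusted p = 0.581), and Lpar5 was near the limit of detection at 0.405 ± 0.261 and 0.445 ± 0.160 CPM (0.22, adjusted p = 0.773). In the Pax6-labelled libraries, where 18.9% of genes were called lower and 16.6% higher (35.5% together), Lpar2 was the one receptor called. It fell from 21.3 ± 2.51 to 14.95 ± 1.35 CPM (log2 fold change -0.51, SE 0.10, adjusted p = 0.00249), a call lost against the 2 male controls. Lpar2 was also called higher in the BAF155 cKO than in the Pax6-labelled libraries (0.42, SE 0.10, adjusted p = 0.0361), a contrast in which 2.3% of genes were called higher and 2.01% lower (4.31% together). That call was lost in 11 of 17 alternatives. These were the replicate block, no filter, the BAF155 cKO libraries of lane 1 or of lane 3 alone, and the fits without any 1 of BAF155 cKO replicates 1, 2 and 3 or of the 4 Pax6-labelled libraries. Adjusted p ran from 0.0345 to 0.112 over the libraries left out. The means of Lpar1 and Lpar2 stood in opposite order between the knockouts, as a description only, since Lpar1 was chosen on this difference and the Lpar2 call was not stable. The median log2 fold change of the 4 receptors was 0.16 in the BAF155 cKO, -0.17 in the Pax6-labelled libraries and 0.27 between them.

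**Figure D3:**
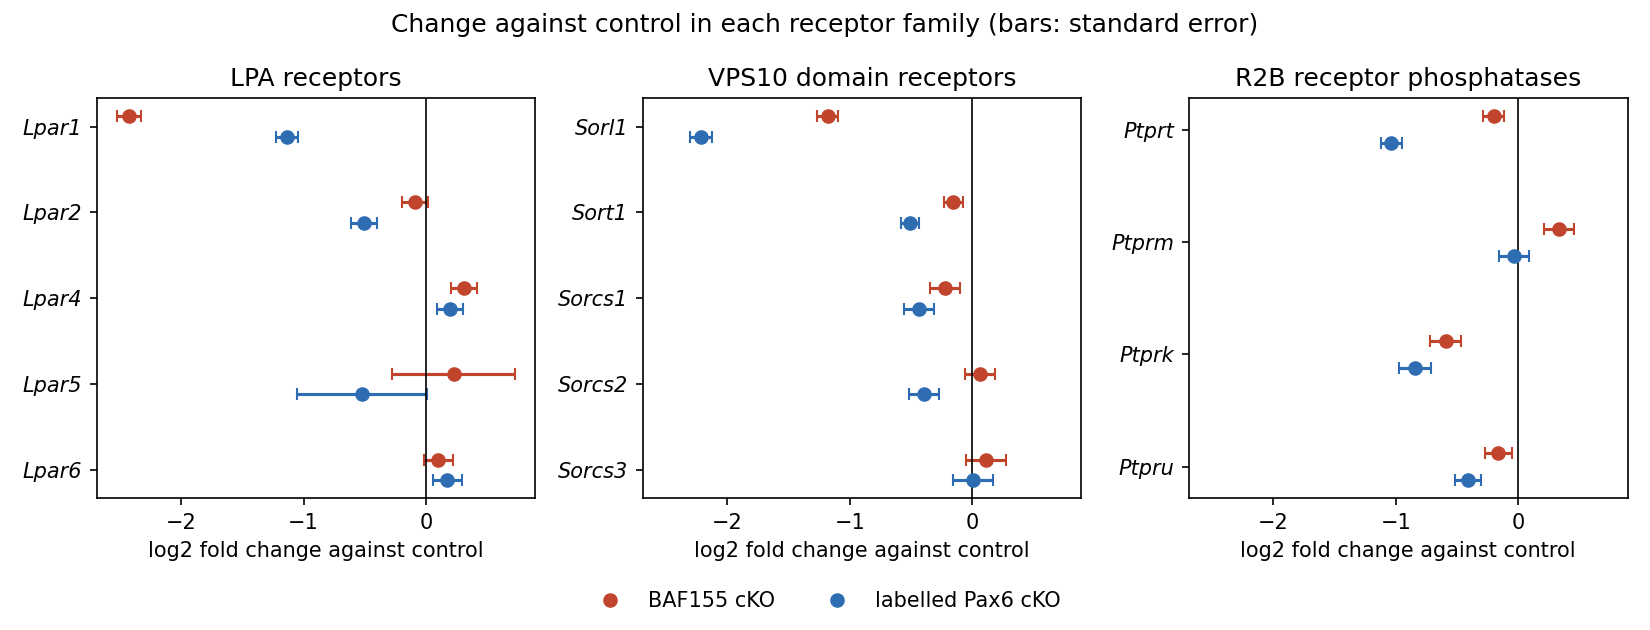
Log2 fold change against control, with its standard error, of the receptor families of Lpar1, Sorl1 and Ptprt in the BAF155 cKO and in the Pax6-labelled libraries. Lpar1 in the BAF155 cKO at -2.43 and Sorl1 in the Pax6-labelled libraries at -2.21 are the lowest points of their families.

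Genes that supply, break down or sense LPA and the related lipid sphingosine-1-phosphate were mostly not called. Of 18 tested, 3 were called lower in the BAF155 cKO and 6 in the Pax6-labelled libraries, none higher in either, with median log2 fold changes of -0.19 and 0.01. At an unadjusted p under 0.05, 8 and 7 of the 18 passed in either direction, and DESeq2 called 4 and 6. Without control replicate 1, 1 was called higher in the Pax6-labelled libraries. Enpp2, which encodes autotaxin, was not called, at 11.6 ± 1.56 CPM in controls, 9.55 ± 2.19 CPM in BAF155 cKO libraries (adjusted p = 0.175) and 12.9 ± 0.278 CPM in Pax6-labelled libraries (adjusted p = 0.469). Enpp2 is also known from choroid plexus, whose markers added up to 17.9 to 36.4 CPM in controls, 8.63 to 21.9 CPM in BAF155 cKO libraries and 26.9 to 331 CPM in Pax6-labelled libraries, and their part in its level was not tested. S1pr3, a sphingosine-1-phosphate receptor, fell in both, by 0.95 (adjusted p = 0.000365) and by 0.79 (adjusted p = 0.000718) on the log2 scale. Plppr1, a neuronal lipid phosphatase-related membrane protein, fell by 0.50 (adjusted p = 0.00195) and by 0.41 (adjusted p = 0.00299). Plpp3, an ectoenzyme that dephosphorylates LPA, fell by 0.63 in the Pax6-labelled libraries (adjusted p = 0.000194).

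Between the knockouts, 1 of the 18 lipid genes was called higher in the BAF155 cKO and 1 lower. Plpp3 was the higher, by 0.36 (SE 0.09, adjusted p = 0.0355), and the call was lost with the replicate block and without BAF155 cKO replicate 2 or 3 or any 1 of the 4 Pax6-labelled libraries (adjusted p from 0.0293 to 0.104 over the libraries left out). The Plpp3 call was also lost with the BAF155 cKO libraries of lane 1 alone. Sphk1, a kinase that makes sphingosine-1-phosphate, was the lower. It was at 0 in 3 BAF155 cKO libraries and at 0.0388 CPM in the other, against 0.239 to 0.629 CPM in control and 0.247 to 0.488 CPM in the Pax6-labelled libraries. Its adjusted p was 0.000473 against control and 0.00368 between the knockouts, and no fold is given from so few reads. Like Lpar1, Sphk1 was thus lowest in the BAF155 cKO, at a much lower level. DESeq2 called no gene of the 18 lower between the knockouts, and so did not call Sphk1 there.

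Among the G proteins and effector genes downstream of LPA receptors, the calls went down. In the BAF155 cKO 6 of 19 were called lower, and in the Pax6-labelled libraries 11 of 19, with none higher and medians of -0.20 and -0.25. At an unadjusted p under 0.05, 10 and 13 passed in either direction, and DESeq2 called 7 and 12, 1 of the latter higher. The count of 6 in the BAF155 cKO was 2 or 3 without BAF155 cKO replicate 1 or 4 or control replicate 3 or 4, and 1 with the BAF155 cKO libraries of lane 1 alone. Against controls of the same sex, 8 and 2 were called lower. Gna12, the G protein alpha subunit that activates guanine nucleotide exchange factors, fell by 0.53 (adjusted p = 0.0132) and by 0.65 (adjusted p = 0.00184). Plcb3, a phospholipase C, fell by 0.44 (adjusted p = 0.0213) and by 0.51 (adjusted p = 0.0037). With the BAF155 cKO libraries of lane 1 alone, Gna12 and Plcb3 lost their calls against control. The first Plcb3 call was also lost without BAF155 cKO replicate 4 or control replicate 3 or 4 (adjusted p up to 0.0748), and the second against the male controls. Adcy1, a neuronal adenylyl cyclase, fell by 0.49 in the BAF155 cKO (adjusted p = 0.00137), and Arhgef12, a guanine nucleotide exchange factor, by 0.48 in the Pax6-labelled libraries (adjusted p = 0.000521). Between the knockouts none of the 19 was called by edgeR, and DESeq2 called 4. Without BAF155 cKO replicate 3 edgeR called 1 lower there, and without BAF155 cKO replicate 4 it called 1 higher.

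The VPS10 domain receptors related to Sorl1 were mostly called lower in the Pax6-labelled libraries. Of 4 tested beside Sorl1, 3 were called lower in the Pax6-labelled libraries, and none in the BAF155 cKO (none at an unadjusted p under 0.05, and none with DESeq2). Sort1, encoding sortilin, which sorts neurotrophins and lysosomal enzymes, was at 279 ± 23.5 CPM in controls, 250.4 ± 7.07 CPM in BAF155 cKO libraries and 196 ± 3.92 CPM in Pax6-labelled libraries. Its log2 fold change was -0.15 (adjusted p = 0.166) and -0.51 (SE 0.08, adjusted p = 0.000246), and Sort1 was called higher in the BAF155 cKO than in the Pax6-labelled libraries (0.35, SE 0.08, adjusted p = 0.0158). The last call was lost without replicate 1, 2 or 3 of the Pax6-labelled libraries (adjusted p from 0.0215 to 0.0547 over the libraries left out). Sorcs1 fell by 0.44 (adjusted p = 0.0141) and Sorcs2 by 0.40 (adjusted p = 0.0203) in the Pax6-labelled libraries, both neuronal sorting receptors. Against the male controls alone neither call was kept, and that of Sorcs2 was also lost without control replicate 4 (adjusted p up to 0.0796). Sorcs2 was called higher in the BAF155 cKO than in the Pax6-labelled libraries (0.46, adjusted p = 0.0461). That call was lost without any 1 of the 8 libraries (adjusted p from 0.0523 to 0.121). It was also lost with the replicate block and with the BAF155 cKO libraries of lane 1 alone. Sorcs3 was level at 9.16 ± 2.005, 9.98 ± 1.70 and 9.18 ± 1.18 CPM in control, BAF155 cKO and Pax6-labelled libraries and was not called. Median log2 fold changes of the 4 were -0.05, -0.42 and 0.28 in the 3 contrasts, where those of Sorl1 were -1.18, -2.21 and 1.03.

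The retromer and other adaptors that move Sorl1 protein between compartments showed calls in both directions. Of 16 genes, 1 was called higher and 1 lower in the BAF155 cKO, and 5 higher and 4 lower in the Pax6-labelled libraries, with medians of -0.03 and 0.11. The lower genes were 2 to 4 in the BAF155 cKO without BAF155 cKO replicate 2 or 3 or control replicate 1, and 2 in the Pax6-labelled libraries without control replicate 3 or 4 or Pax6-labelled replicate 1 or 4. Against controls of the same sex the latter counts were 1 higher and 0 lower, with 10 at an unadjusted p under 0.05 and 9 called by DESeq2 against all controls. Vps29, a retromer subunit, rose by 0.72 on the log2 scale in the Pax6-labelled libraries (adjusted p = 0.00194). Its rise of 0.46 in the BAF155 cKO (adjusted p = 0.0439) was lost with the replicate block and without BAF155 cKO replicate 1, 3 or 4 or control replicate 3 or 4 (adjusted p from 0.0109 to 0.154). Vps35, the retromer scaffold, lay at 304 ± 31.8 CPM in controls, 304 ± 21.7 CPM in BAF155 cKO libraries and 397 ± 36.9 CPM in Pax6-labelled libraries (0.39, adjusted p = 0.00722), so that it was lower in the BAF155 cKO than in those (-0.39, adjusted p = 0.0346). The direct Vps35 call was lost without BAF155 cKO replicate 1, 2 or 3. It was also lost without replicate 2, 3 or 4 of the Pax6-labelled libraries (adjusted p from 0.0345 to 0.114 over the libraries left out). With the BAF155 cKO libraries of lane 1 alone this call was lost too. Hspa12a, which is known to bind the tail of SORLA, fell by 0.81 in the BAF155 cKO (adjusted p = 0.000489) and by 0.52 in the Pax6-labelled libraries (adjusted p = 0.00461). Snx5 rose by 0.29 (adjusted p = 0.00896), and the adaptors Gga1 and Pacs1 fell by 0.40 (adjusted p = 0.0106) and 0.34 (adjusted p = 0.0209) in the Pax6-labelled libraries. Pacs1 was lost without control replicate 3 or 4 or without replicate 1 or 4 of the Pax6-labelled libraries (adjusted p up to 0.0635). Against the male controls alone, Vps35, Hspa12a, Snx5, Gga1 and Pacs1 all lost their calls.

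Of the lipoprotein receptor family, whose receptors share repeats with Sorl1, and its ligands, chaperone and adaptor, 13 genes were tested. In the BAF155 cKO 1 was called higher and 6 lower, and in the Pax6-labelled libraries 2 higher and 8 lower, with medians of -0.02 and -0.45. With the BAF155 cKO libraries of lane 1 alone, no gene of the 13 was called against control. Lrp4, a co-receptor of agrin, had the same order of groups as Sorl1, at 52.8 ± 8.50 CPM in controls, 33.6 ± 5.78 CPM in BAF155 cKO libraries and 18.2 ± 0.997 CPM in Pax6-labelled libraries. Its log2 fold change was -0.64 (SE 0.12, adjusted p = 0.00358) and -1.54 (SE 0.13, adjusted p = 8.66e-07), and the direct difference was 0.89 (SE 0.13, adjusted p = 0.00151). Lrp6, a Wnt co-receptor, was higher in the BAF155 cKO than in the Pax6-labelled libraries by 0.42 (adjusted p = 0.0104), and Lrp2, also called megalin, by 0.77 (adjusted p = 0.0159). The Lrp2 call was lost without BAF155 cKO replicate 2 or replicate 2 or 4 of the Pax6-labelled libraries (adjusted p up to 0.0601). These 3 were the genes that edgeR called between the knockouts over all libraries, each higher in the BAF155 cKO. DESeq2 called 6 higher and 1 lower, the fit of the 8 libraries alone 4 and 1, and the BAF155 cKO libraries of lane 1 alone, as well as the fit without BAF155 cKO replicate 4, 3 and 1. Dab1, the adaptor of reelin signalling, and Lrp8, a reelin receptor, fell by 0.62 (adjusted p = 0.00614) and by 0.37 (adjusted p = 0.00831) in the BAF155 cKO, and Lrp1b rose by 0.76 (adjusted p = 0.00333). In the Pax6-labelled libraries, the chaperone Lrpap1 fell by 0.52 (adjusted p = 0.000265), while the ligands Reln and Apoe rose by 0.52 (adjusted p = 0.00207) and 0.83 (adjusted p = 0.0053). Reln is also a marker of Cajal-Retzius neurons, whose 8 markers, Reln among them, all rose in these libraries and added up to 836 to 921 CPM against 462 to 631 CPM in control. Their part in the rise of Reln was not tested. The Apoe call was lost against the male controls.

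App, the cargo of SORLA, and its processing enzymes were mostly not called. Of 15 genes, 1 was called lower in the BAF155 cKO and 4 in the Pax6-labelled libraries, with none higher and medians of -0.03 and -0.16. At an unadjusted p under 0.05, 1 and 8 passed in either direction, and DESeq2 called 1 and 6. App fell by 0.41 in the BAF155 cKO (adjusted p = 0.025), a call lost without BAF155 cKO replicate 1 or 4 or control replicate 3 or 4 (adjusted p up to 0.0786), and by 0.46 in the Pax6-labelled libraries (adjusted p = 0.00579). There Bace1, beta-secretase, fell by 0.33 (adjusted p = 0.00612). Against the male controls alone no gene of the 15 was called, and without control replicate 3, 1 was called higher in the Pax6-labelled libraries.

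In the R2B family of Ptprt, Ptprk was called lower in both knockouts and Ptpru in the Pax6-labelled libraries. Ptprk lay at 103 ± 22.1 CPM in controls, 68.6 ± 9.09 CPM in BAF155 cKO libraries and 57.8 ± 2.59 CPM in Pax6-labelled libraries, falling by 0.59 (SE 0.13, adjusted p = 0.0078) and by 0.84 (SE 0.13, adjusted p = 0.000307) on the log2 scale. With the BAF155 cKO libraries of lane 1 alone the first of these calls was lost. Ptpru fell from 51.0 ± 8.50 to 38.4 ± 2.71 CPM in the Pax6-labelled libraries (-0.41, SE 0.11, adjusted p = 0.00995), a call lost against the male controls. Ptprm was not called, at 23.4 ± 2.17, 29.4 ± 5.76 and 22.9 ± 0.913 CPM in control, BAF155 cKO and Pax6-labelled libraries (adjusted p = 0.0826 and 0.86 against control). Between the knockouts none of the 3 was called by edgeR or by DESeq2 (2 at an unadjusted p under 0.05). Without BAF155 cKO replicate 1, edgeR called 1 of the 3 higher in the BAF155 cKO, both against control and between the knockouts. For Ptprk the difference between the knockouts missed the threshold (0.25, SE 0.13, adjusted p = 0.275).

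Of 15 other receptor-type phosphatases, 2 were called lower in the BAF155 cKO and 6 in the Pax6-labelled libraries, with none higher and medians of -0.04 and -0.26. Without BAF155 cKO replicate 3, 1 was called higher against control. Between the knockouts edgeR called none (7 at an unadjusted p under 0.05, and 1 higher without BAF155 cKO replicate 1) and DESeq2 called 2. Ptprj fell by 0.58 (adjusted p = 0.000608) and by 0.64 (adjusted p = 0.000126), and Ptprf, the phosphatase LAR of growing axons, by 0.42 (adjusted p = 0.0134) and by 0.73 (adjusted p = 0.000134). The first Ptprf call was lost with the BAF155 cKO libraries of lane 1 alone. Ptprz1, a phosphatase of radial glia that is also a proteoglycan, fell by 0.43 in the Pax6-labelled libraries (adjusted p = 0.00194).

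Genes of proteins reported to bind Ptprt or to be its substrates were called lower in 4 of 14 cases in the BAF155 cKO and in 9 of 14 in the Pax6-labelled libraries, with none higher and medians of -0.30 and -0.35. Without BAF155 cKO replicate 2 or control replicate 1 the first count was 7, and against controls of the same sex the counts were 10 and 3. Nlgn1, the synaptic adhesion protein neuroligin, fell by 0.65 (adjusted p = 0.000349) and by 0.55 (adjusted p = 0.000667). Bcar1, the focal adhesion docking protein, fell by 0.60 (adjusted p = 0.00547) and by 0.73 (adjusted p = 0.000669), and the cadherin Cdh2 by 0.49 (adjusted p = 0.00941) and by 0.59 (adjusted p = 0.00133). Bcar1 lost its first call with the BAF155 cKO libraries of lane 1 alone. No gene of the 14 was called between the knockouts by edgeR, while DESeq2 called 2 and edgeR 1 higher without BAF155 cKO replicate 1.

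Genes with the most similar course over the libraries were sought by Pearson's r with each gene in log2(CPM + 1), over 12 libraries and among 14319 genes with a symbol and a mean of at least 1 CPM. The value is a description, since the libraries fall into 3 groups, and lane and sex go partly with group. Nearest to Lpar1 were Apobec1 (r 0.977), an RNA-editing deaminase, Slc1a3 (r 0.969), the glutamate transporter GLAST of radial glia, Lix1 (r 0.969), Fgfbp3 (r 0.961), an FGF-binding protein, and Rassf4 (r 0.956). Slc1a3 lay at 292 ± 29.9 CPM in controls, 145 ± 9.12 CPM in BAF155 cKO libraries and 213 ± 7.20 CPM in Pax6-labelled libraries, the same order as Lpar1 with smaller differences.

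Nearest to Sorl1 were Hs3st1 (r 0.991), a heparan sulfate sulfotransferase, the noncoding RNA Gm35394 (r 0.987), F2r (r 0.982), the thrombin receptor, Nrn1 (r 0.982), which encodes neuritin, and Sstr2 (r 0.978), a somatostatin receptor and marker of intermediate progenitors. Gm35394 came closest in size too, with a log2 fold change of -1.17 in the BAF155 cKO and -2.20 in the Pax6-labelled libraries. Nearest to Ptprt were Epha3 (r 0.967), an ephrin receptor, Rnf24 (r 0.965), Slc35e1 (r 0.960), Mmp16 (r 0.959), a membrane-bound metalloprotease, and Rbm24 (r 0.959), an RNA-binding protein. Epha3 had log2 fold changes of -0.33 in the BAF155 cKO and -1.07 in the Pax6-labelled libraries, beside -0.20 and -1.04 for Ptprt, whereas those of Mmp16 were -0.09 and -0.32. A high r thus went with differences of unlike size.

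**Figure D4:**
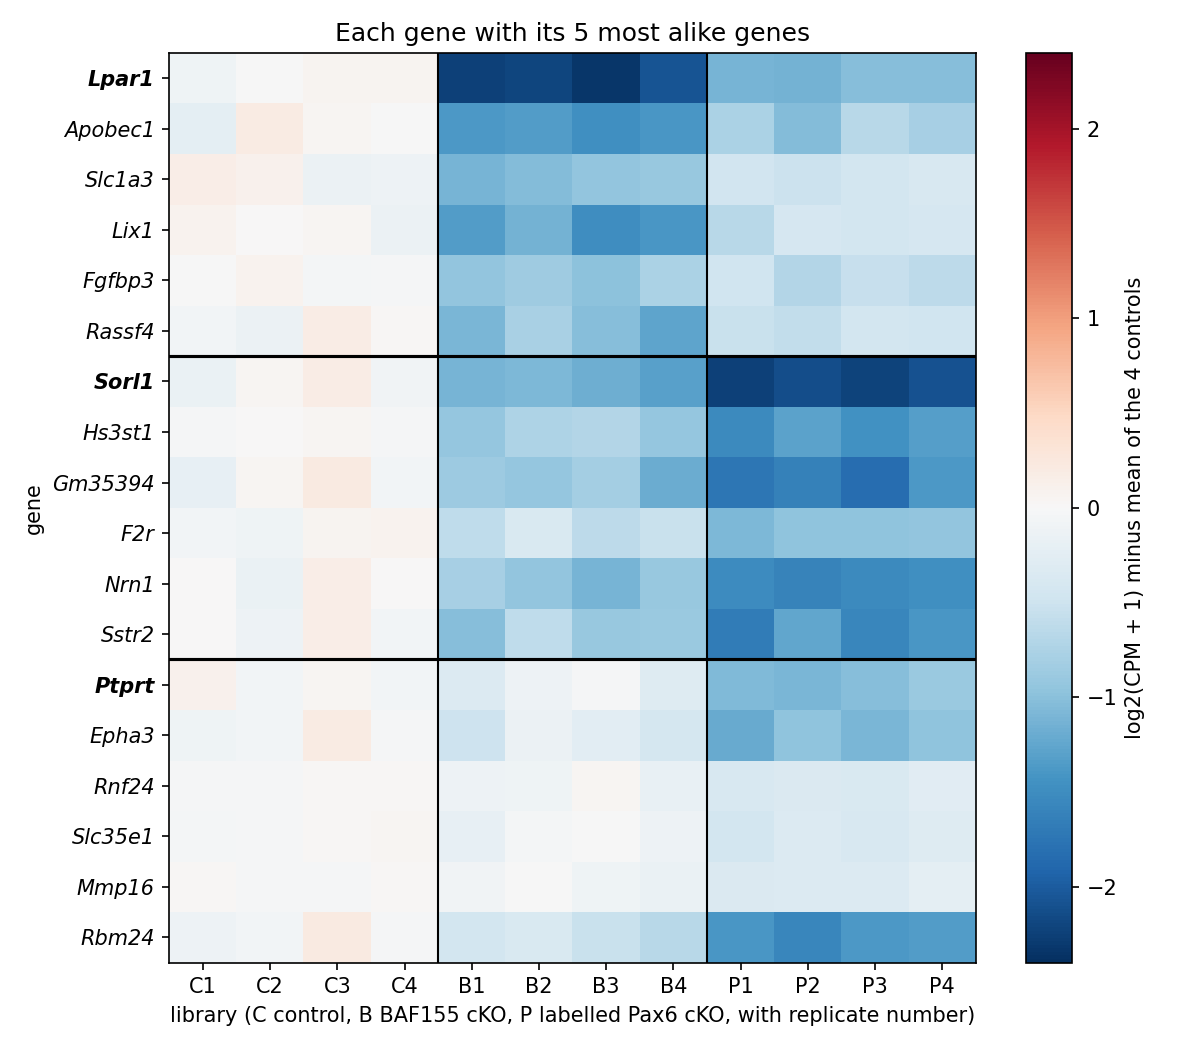
Level of Lpar1, Sorl1 and Ptprt (bold) and of the 5 genes most alike to each in the 12 libraries, as log2(CPM + 1) minus the mean of the 4 controls (color scale; blue is lower). The rows with Lpar1 are darkest in the BAF155 cKO, those with Sorl1 and Ptprt in the Pax6-labelled libraries.

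Markers of several cell types moved with the same groups. Radial glia markers, 14 in all, added up to 2762 to 3045 CPM in controls, 2333 to 2699 CPM in BAF155 cKO libraries and 2687 to 2916 CPM in Pax6-labelled libraries. Of these 1 was called higher and 8 lower in the BAF155 cKO, 3 and 8 in the Pax6-labelled libraries, and 3 were lower in the BAF155 cKO than in those libraries, with none higher. Pax6 and Slc1a3 are among the 14, and Pax6 went against the markers called lower. Its mean was 110 CPM in controls, 314 CPM in BAF155 cKO libraries and 389 CPM in Pax6-labelled libraries. This rise narrows the gap between the sums of either knockout and control. The median log2 fold change of the 14 was -0.55 in the BAF155 cKO and -0.48 in the Pax6-labelled libraries. With Pax6 included, the sum was lowest in the BAF155 cKO, as Lpar1 was, but neighbouring groups overlapped. Pax6 alone made up 82.0 to 125 CPM of the sum in controls. It made up 273 to 369 CPM in BAF155 cKO libraries and 380 to 399 CPM in Pax6-labelled libraries. Sums without Pax6 were not formed, so the overlap is shown only for sums that include it. The part of these markers in the level of Lpar1 was not tested.

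The 10 markers of intermediate progenitors added up to 905 to 1317 CPM in controls and 654 to 919 CPM in BAF155 cKO libraries. In Pax6-labelled libraries they added up to 604 to 642 CPM. Sstr2, named above among the genes most alike to Sorl1, is part of this list. In the BAF155 cKO 4 of the 10 were called lower and in the Pax6-labelled libraries 7. Between the knockouts 6 were called higher in the BAF155 cKO. The means of Sorl1 and Ptprt were also higher there, but both genes were chosen on that difference and it was not tested. Upper-layer neuron markers, 10 in all, added up to 2086 to 2645 CPM in controls, 1085 to 1569 CPM in BAF155 cKO libraries and 1095 to 1184 CPM in Pax6-labelled libraries, with 7 and 9 called lower and 3 higher in the BAF155 cKO than in the Pax6-labelled libraries. Of 9 deep-layer and subplate markers, 3 were called lower in the BAF155 cKO, and 6 lower and 1 higher in the Pax6-labelled libraries. Without control replicate 1 or 2 the first count was 5, and the 1 higher was lost without control replicate 1, 3 or 4 or Pax6-labelled replicate 2, 3 or 4. Their part in the levels of Sorl1 and Ptprt was not tested.

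Ventral and GABAergic markers went the other way, with 10 of 13 called higher in the BAF155 cKO and 12 of 13 in the Pax6-labelled libraries, and none lower. They added up to 728 to 1055 CPM in controls, 1408 to 1631 CPM in BAF155 cKO libraries and 1732 to 1833 CPM in Pax6-labelled libraries. Lpar1 is also known from oligodendrocyte lineage, vessel and meningeal cells. The 6 markers of oligodendrocyte precursors added up to 45.1 to 71.4 CPM in controls, 62.3 to 82.0 CPM in BAF155 cKO libraries and 62.2 to 70.2 CPM in Pax6-labelled libraries. Their calls went both ways, with 2 higher and 2 lower in the BAF155 cKO (median log2 fold change -0.23) and 2 higher and 1 lower in the Pax6-labelled libraries (-0.11). Without BAF155 cKO replicate 1 or 4 or control replicate 2 or 4, 1 was lower in the BAF155 cKO, and without control replicate 1, 3 or 4 or Pax6-labelled replicate 1, 2 or 3, 1 was higher in the Pax6-labelled libraries. Meningeal markers, 7 of them tested, added up to 45.96 to 55.9 CPM in controls, 33.2 to 36.0 CPM in BAF155 cKO libraries and 47.3 to 48.6 CPM in Pax6-labelled libraries. They were lowest with Lpar1, and 1 was called higher and 1 lower in the BAF155 cKO against control (2 higher without BAF155 cKO replicate 2 or control replicate 4). Endothelial markers added up to 145 to 178, 113 to 186 and 161 to 184 CPM in the same order and overlapped, with none of 10 called in the BAF155 cKO (1 at an unadjusted p under 0.05, none with DESeq2). Against control, 2 endothelial markers were called higher in the Pax6-labelled libraries. Between the knockouts 2 were called lower in the BAF155 cKO. With 1 library left out these counts ran from 0 to 3 and from 0 to 2. The 8 pericyte markers added up to 225 to 276, 204 to 279 and 260 to 286 CPM. Of these 1 was called lower in the BAF155 cKO, 2 higher and 2 lower in the Pax6-labelled libraries, and 1 higher between the knockouts. No marker of these lists was at 0 in all libraries. The part of these cells in the level of Lpar1 was not tested.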

How the data were processed

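RNA of the 12 libraries was isolated with an RNeasy kit and made into TruSeq RNA v2 libraries, per the labels' protocols. The authors deposited raw read counts per Ensembl gene, as whole numbers without a header or normalization; per the submitters' processing notes the build was mm10, with the aligner, counter and annotation not given in the sources used here. Of 48709 identifiers, 48349 matched GENCODE M21, and the other 360 held at most 0.0397% of a library's reads. Groups and replicate numbers came from the sample titles.

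The analysis used edgeR 4.0.16 in R 4.3.3: filterByExpr (16511 genes kept), TMM scaling and a robust quasi-likelihood fit of all 12 libraries with 1 coefficient per group. CPM uses TMM-scaled library sizes, so levels are relative to the other genes. Standard errors were taken as |log2 fold change| over the root of the F statistic. The fit was run on simulated independent counts with a common spread and no lane or sex differences. That run does not show how calls behave where such differences exist. The 3 genes and the gene lists were chosen with earlier results of these data known, so counts over lists are descriptions.

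Named by rule were the targeted genes, the receptor families with Enpp2, the up to 3 called genes of smallest adjusted p per list, contrast and direction, and the 5 most alike genes per gene, apart from a few left out here. Sex was read from Xist above 100 CPM. Alternatives were DESeq2 1.42.0, edgeR with RLE size factors, limma-voom (limma 3.58.1), a filter of at least 1 CPM in 4 libraries or none, the 8 libraries compared alone, a replicate block, controls of the same sex alone, BAF155 cKO libraries of lane 1 or lane 3 alone, each library left out, and a pseudocount of 0.1 for r. Among the targeted genes and the pathway genes named by rule, exons of other genes overlap those of App, Arhgef12, Bace1, Enpp2, Gna12, Hspa12a, Lpar6, Lrp1b, Nlgn1, Plcb3, Ptprm, Reln, S1pr3, Smarcc1, Snx5, Sorcs1, Sort1, Sphk1, Vps29 and Vps35, so their counts can hold reads of a neighbour. The most alike genes were not checked for such overlaps.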

Additional observations from a re-analysis of the deposited data

Results flagged for a closer look

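Each named gene of the pathway lists, 46 genes in 3 groups of 4 libraries, was checked for a library whose gap to the nearest other exceeded Dixon's critical value as a share of the group's range. Of 138 groups 9 passed, and chance alone passes about 1 in 20. Lpar1, Sorl1 and Ptprt had no such library. Control replicate 2 was low for App, at 472 CPM against 539 to 549 CPM in the other controls, and for Bace1, at 117 CPM against 127 to 128 CPM. BAF155 cKO replicate 3 was low for Lpar4, at 10.6 CPM against 13.05 to 13.3 CPM, and for Ptpru, at 39.8 CPM against 46.7 to 47.8 CPM. BAF155 cKO replicate 4 was low for S1pr3, at 6.19 CPM against 7.28 to 7.42 CPM, and for Sort1, at 239.8 CPM against 253.6 to 254.6 CPM. BAF155 cKO replicate 1 was low for Lrp1b, at 6.41 CPM against 8.75 to 8.94 CPM, and held the one read of Sphk1 among the BAF155 cKO libraries, at 0.0388 CPM. Replicate 2 of the Pax6-labelled libraries was low for Ptprz1, at 497 CPM against 556 to 565 CPM.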

How the results depend on the processing

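The log2 fold changes of Lpar1, Sorl1 and Ptprt kept their sign in all 153 values under the other settings and library omissions, and each moved by less than 1 SD between replicates. Of 1070 such values for the other genes named, 970 stayed on their side of the threshold, 100 lost the call and 0 reversed. With the BAF155 cKO libraries of lane 3 alone, Lpar2, Plpp3, Sphk1, Sort1, Sorcs2, Vps35, Lrp6 and Lrp2 lost their calls between the knockouts, and Lrp4 kept its call. With the BAF155 cKO libraries of lane 1 alone, Lpar2, Plpp3, Sorcs2 and Vps35 lost these calls. Sort1, Lrp4, Lrp6 and Lrp2 kept theirs. Counts over all genes moved more. Main counts of higher and lower genes were 998 and 1248 for BAF155 cKO against control, 2745 and 3121 for the Pax6-labelled libraries against control, and 379 and 332 between the knockouts. DESeq2 called 722 higher and 617 lower between the knockouts. With only the 8 libraries compared, 379 were higher and 656 lower in the BAF155 cKO. Controls of the same sex gave 1822 and 2472 for the BAF155 cKO and 530 and 845 for the Pax6-labelled libraries; no such fit exists between the knockouts. With the BAF155 cKO libraries of lane 1, 258 and 424 were called against control and 164 lower between the knockouts; with those of lane 3, 142 and 67 between the knockouts. With 1 library left out, counts ran from 346 to 1973 higher and 655 to 2100 lower for the BAF155 cKO, from 1732 to 2908 and 2093 to 3693 for the Pax6-labelled libraries, and from 158 to 419 and 143 to 367 between the knockouts. Shifts above 1.5 times came without BAF155 cKO replicates 1, 2 and 4 and control replicates 3 and 4 for the BAF155 cKO, control replicates 3 and 4 for the Pax6-labelled libraries, and BAF155 cKO replicates 1, 2 and 3 and each Pax6-labelled library between the knockouts. The cause was not tested. The replicate block left 250 higher genes between the knockouts. Same-numbered libraries correlated from -0.30 to 0.46 in their deviations, with both signs. These values cannot settle whether the numbers pair any libraries, and the main fit did not pair them. With a pseudocount of 0.1 the gene most alike to each of Lpar1, Sorl1 and Ptprt stayed the same. Depth limits Sphk1, Lpar3 and Lpar5, and the low Lpar1 counts of the BAF155 cKO.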

Other observations

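With each group's mean removed, so that only the spread between libraries of a group is left, other genes were nearest. Over 12 libraries and 14319 genes, Nsmce4a (r 0.937) and Nuf2 (r 0.922) were nearest to Lpar1, Trim2 (r 0.929) and Smarcal1 (r 0.926) to Sorl1, and Wdr12 (r 0.923) and Ppfia2 (r 0.921) to Ptprt. None of these is among the 5 genes nearest in level. The values are a description of these libraries, picked as the highest of many.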
